A study of Mus musculus with 16 samples.

Results

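The comparison described here was between KSL and KL cells of mouse bone marrow on the arrays that carry the WT label. Its members were chosen by title: the 4 arrays titled KSL WT and the 4 titled KL WT, 8 of the 16 arrays in the series. KSL cells lack lineage markers and carry c-Kit and Sca-1 (Lin-Kit+Sca1+), and KL cells carry c-Kit without Sca-1 (Lin-Kit+Sca1-). By their labels both populations came from the marrow of WT mice. The study's array methods describe sorting directly into lysis buffer for KSL cells and do not mention KL cells. Whether both populations were handled alike is therefore not known. The other 8 arrays are labelled as KSL and KL cells from Camkk2 null mice, which lack calcium/calmodulin-dependent kinase kinase 2. The series lists 16 mice for each genotype and 4 biological replicates, and the age, sex and strain of the mice are not given in the sources used here. The study reported the null against WT comparison in KSL, so KSL against KL within the WT label is a contrast that the design holds but the study did not describe. The tube names in the labels run from 1 to 8 for KL and from 9 to 16 for KSL. The labels do not call this a batch, and if the numbers marked an order of work it could not be told apart from the cell type.

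KSL cells hold the hematopoietic stem cells and the multipotent progenitors of the marrow. KL cells are committed progenitors of the red cell, platelet, granulocyte, macrophage and mast cell lineages. Immediate-early genes are transcribed within minutes of a stimulus without new protein synthesis. They include the AP-1 transcription factors of the Fos and Jun families, the Egr and Nr4a factors, and genes that damp the same signals again, such as the dual specificity phosphatases and RNA-destabilising proteins. Growth factors, cytokines and cell stress are textbook triggers of these genes.

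Gene expression was given as the authors' log2 signals, where a difference of 1 is a doubling. For each of 30176 genes the KSL mean was compared with the KL mean in limma, a linear model that shares the estimate of spread across genes and here across all 16 arrays. A gene was called when its p, adjusted over all 30176 genes by Benjamini-Hochberg, was under 0.05 and its fold was at least 1.5. Each ± is an SD over 4 arrays, and every adjusted p below is from limma. Array medians lay between 5.01 and 5.12, and the number of arrays limits the precision. Arrays correlated at 0.994 to 0.997 within KSL, at 0.995 to 0.997 within KL and at 0.994 to 0.996 between them. Arrays of different sort labels were therefore about as alike as arrays of one label.

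Camkk2, the gene targeted in the series, read 7.98, 8.02, 7.11 and 7.45 on the 4 KSL arrays and 7.86, 7.81, 6.89 and 7.48 on the 4 KL arrays with the WT label. The groups overlapped, and the difference of 0.13 (SE 0.27, adjusted p = 0.974) was not called. Under the null label it read 7.82, 7.93, 7.14 and 7.14 in KSL and 7.83, 7.82, 7.08 and 7.12 in KL, within the range of the WT-labelled arrays, so it did not separate the genotype labels. In each of the 4 groups replicates 1 and 2 read above replicates 3 and 4. The sources used here do not say which stretch of the gene was removed, so a probe set outside it would check nothing.

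The cell type labels were checked against defining markers, and the data went against them. Of 12 measured KSL markers, all 12 had a lower mean in KSL than in KL, by a median of 0.19 on the log2 scale. None was called. At an unadjusted p under 0.05 in limma 6 were lower and 0 higher, beside 4.38% and 3.61% of all genes. Meis1, a homeobox factor of stem cells, read 9.31, 8.98, 8.94 and 8.94 in KSL and 9.42, 9.32, 9.25 and 9.33 in KL. Hlf, a transcription factor of stem cells, read 8.81, 8.35, 7.96 and 8.03 in KSL and 8.78, 8.55, 8.51 and 8.64 in KL. Each of these groups overlapped. Of 14 measured KL markers, 11 had a higher mean in KSL and 3 a lower one, with a median difference of 0.21, none called and 6 higher at an unadjusted p under 0.05, beside 3.61% of all genes. Ly6a, which encodes Sca-1 and defines the sort, was not analysed here, because no probe set was listed to it alone.

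Across all 16 arrays the defining markers separated the genotype labels and not the sort labels. For 11 of 12 KSL markers every WT-labelled array, KL included, lay above every null-labelled array, the exception being Slamf1, a surface marker of stem cells. For 11 of 14 KL markers every WT-labelled array lay below every null-labelled array, and the others were Kit, Mpo and Cpa3. No KSL marker was above on all KSL arrays and no KL marker was below on all KSL arrays. Dntt, the terminal transferase of lymphoid-primed progenitors, ranged from 9.58 to 10.53 over the 8 WT-labelled arrays and from 5.61 to 6.76 over the 8 null-labelled ones. Rhag, the Rh-associated glycoprotein of red cells, ranged from 5.86 to 7.83 and from 9.86 to 10.84. Of 25 markers, 23 differed more between the genotype labels than between the sort labels. Both WT-labelled groups therefore carried high stem and lymphoid marker signals. Whether the titles give the cell type and the genotype of each array correctly was not settled by these data or by the sources used here. If the names of cell type and genotype were crossed, the differences given below as KSL minus KL would be between genotypes within one cell type. The groups are called by their labels throughout, and the identity of both groups and every direction given below rest on those labels.

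**Figure D1:**
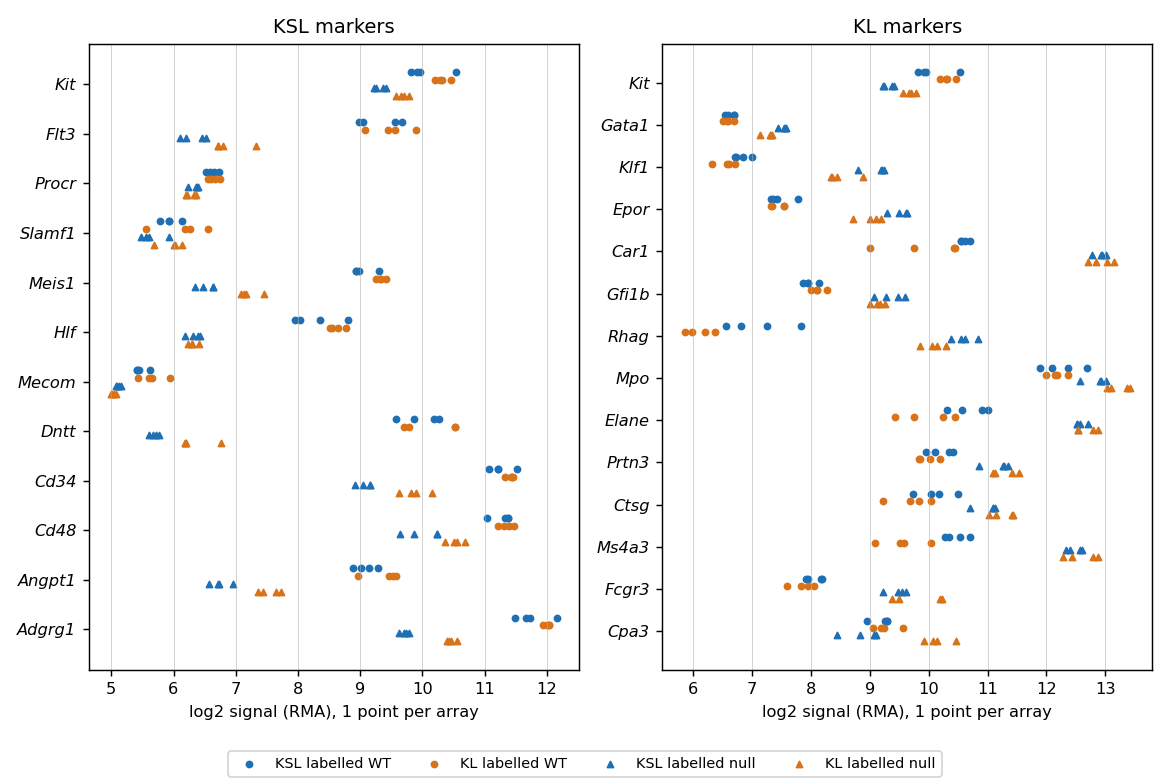
Log2 RMA signal of the KSL markers (left) and the KL markers (right), 1 point per array, circles for arrays labelled WT and triangles for arrays labelled null, blue for KSL and orange for KL. The circles stand together and apart from the triangles for most markers, as with Dntt at 9.58 to 10.53 against 5.61 to 6.76, while blue and orange circles overlap for all 12 KSL markers.

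Few genes differed between KSL and KL under the WT label, and those that did were mostly immediate-early genes that were lower in KSL. In all 25 genes were called, 0.0828% of the 30176 tested. Of these 22 were lower in KSL (0.0729% of all genes) and 3 were higher (0.00994%). An adjusted p under 0.05 without the fold minimum was reached by 33 genes, 5 higher and 28 lower. At an unadjusted p under 0.05 there were 2409 genes, 1088 higher and 1321 lower, and the median difference over all genes was 0.001. All 25 called genes had groups that did not overlap, beside 1.89% of all genes with every KSL array below every KL array and 1.44% with every KSL array above. These genes were picked on the same arrays for a small adjusted p and a large fold, which makes overlap unlikely. Their lack of overlap is therefore no added support.

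The count of calls rested on single arrays. It fell to 9 without KL replicate 4, to 13 without KSL replicate 3, and to 15 without KSL replicate 1 or KL replicate 3, and it rose to 62 without KSL replicate 2. When the 8 WT-labelled arrays were fitted alone, 7 genes were called, of which 6 were among the 25 (Fos, Fosb, Btg2, Ptgs2, Rgs2 and Cldn13), and the adjusted p of Nr4a1 rose to 0.344 and that of Rgs1 to 0.25. Btg2, Cd69, Fos, Fosb, Gm26802, Gzma, Ptgs2 and Rgs2 were called whichever one of the 8 arrays was left out.

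**Figure D2:**
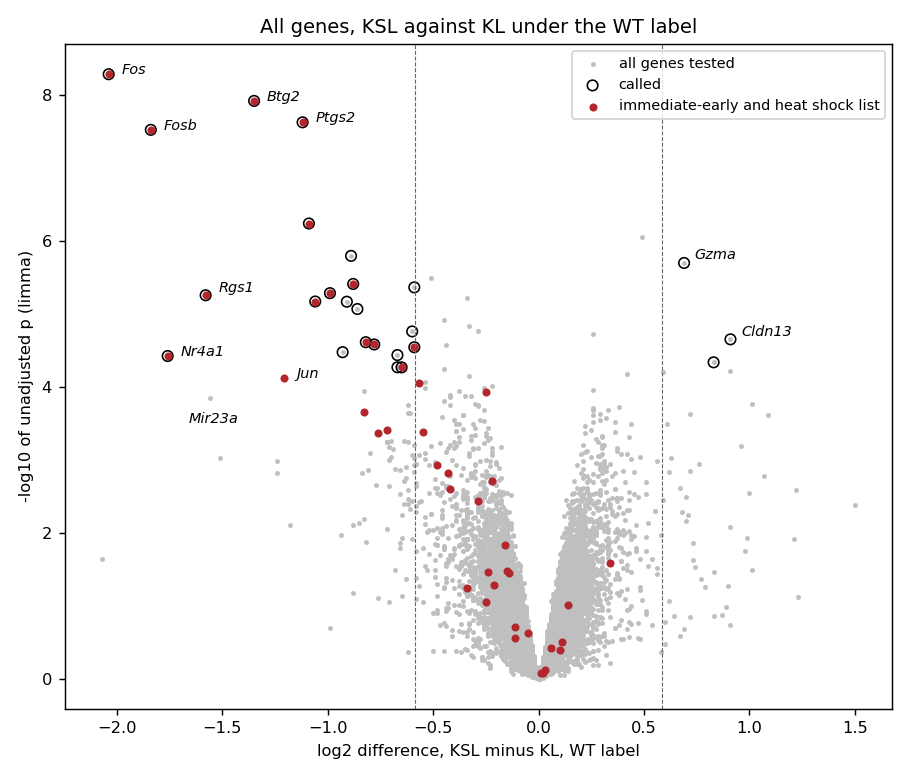
Log2 difference of KSL minus KL under the WT label (horizontal) against −log10 of the unadjusted p from limma (vertical, log scale) for 30176 genes, with the 25 called genes ringed, the 44 measured genes of the immediate-early and heat shock list in red and dashed lines at the fold minimum of 1.5. The ringed red points extend to the left, led by Fos at −2.04, and only 3 rings lie to the right.

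The AP-1 factors gave the largest called differences. Fos, the founding AP-1 subunit, read 7.77, 8.36, 8.24 and 8.45 in KSL and 9.78, 10.03, 10.84 and 10.32 in KL. Every KSL array was below every KL array, and the difference was −2.04 (SE 0.18, 95% interval −2.42 to −1.66, adjusted p = 1.54e-04), a fold of 4.11. Fosb, a second Fos family subunit, read 7.50, 8.02, 8.15 and 8.23 in KSL and 9.32, 9.64, 10.14 and 10.15 in KL, a difference of −1.84 (SE 0.18, adjusted p = 2.24e-04) and a fold of 3.57. Both genes kept their call in each fit that left out an array. Jun, the partner of Fos in AP-1, read 7.27, 7.45, 7.49 and 7.74 in KSL and 8.08, 8.55, 9.31 and 8.86 in KL. Its groups did not overlap either, but the difference of −1.21 (SE 0.23) had an adjusted p of 0.0587 and was not called. Fosl2 was at −0.29 and Jund at −0.11, both with overlapping groups and not called.

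Gm26802 is a long noncoding RNA whose gene is the immediate neighbour of Fosb in gene order on chromosome 7. Gene order counts only tested genes here and below. Gm26802 was lower as well. It read 4.92, 4.77, 4.78 and 4.89 in KSL and 5.42, 5.72, 5.59 and 6.20 in KL, a difference of −0.89 (SE 0.12, adjusted p = 0.00684). The KSL readings lay below the array medians of 5.01 to 5.12. Gm26802 was named after its values were seen, since predicted genes were passed over in naming. Another pair of neighbours moved the same way on chromosome 1. Rgs1 and Rgs2, regulators that shorten G protein signals, lie 2 genes apart in order. Rgs1 read 6.83, 7.05, 6.77 and 7.62 in KSL and 8.12, 8.22, 9.39 and 8.88 in KL. Its difference was −1.58 (SE 0.24, adjusted p = 0.0127), with an adjusted p of at most 0.0709 when an array was left out and no call without KSL replicate 3 or KL replicate 4. Rgs2 read 8.60, 8.66, 8.85 and 8.94 in KSL and 9.66, 9.81, 9.90 and 10.03 in KL, a difference of −1.09 (SE 0.13, adjusted p = 0.00345) that stayed called in each such fit. Paf1, a subunit of a transcription elongation complex, lies 2 genes from Zfp36 and was at −0.45 (SE 0.071, adjusted p = 0.0201), under the fold minimum.

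Nuclear receptors of the Nr4a family were lower in KSL with an uneven spread. Nr4a1, an orphan nuclear receptor induced by many stimuli, read 6.90, 7.28, 7.20 and 7.20 in KSL and 8.21, 8.10, 10.16 and 9.15 in KL. The KSL arrays lay close together and the KL arrays spread over more than 2 log2 units. The difference was −1.76 (SE 0.31, 95% interval −2.42 to −1.10, adjusted p = 0.0378). It was not called without any one of KSL replicates 1, 3 and 4 or without KL replicate 4, with an adjusted p of up to 0.111. Nr4a2 read 6.75, 6.83, 6.63 and 7.07 in KSL and 7.34, 7.32, 7.97 and 7.94 in KL, a difference of −0.82 (SE 0.14, adjusted p = 0.0306). It lost its call without KSL replicate 1 or 3 or KL replicate 3 or 4, with an adjusted p of up to 0.105. Nr4a3, the remaining family member, was at −0.16 (SE 0.057, adjusted p = 0.45), and was not called.

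Among the called members of the immediate-early list were also Btg2, Zfp36, Dusp2, Dusp5 and Ppp1r15a. Btg2, an antiproliferative cofactor of mRNA deadenylation, read 7.27, 7.41, 7.72 and 7.85 in KSL and 8.60, 8.94, 8.87 and 9.22 in KL, a difference of −1.35 (SE 0.13, adjusted p = 1.79e-04). The groups were separated by a gap wider than the range of either, and Btg2 stayed called in each fit that left out an array. Zfp36, which binds AU-rich mRNAs and speeds their decay, read 5.29, 5.49, 5.54 and 5.63 in KSL and 6.49, 5.95, 7.0 and 6.73 in KL. Its difference was −1.06 (SE 0.16, adjusted p = 0.0127), and the adjusted p was 0.072 without KL replicate 4. Dusp2, a nuclear phosphatase of MAP kinases, read 7.83, 8.01, 8.10 and 8.04 in KSL and 8.53, 8.74, 9.29 and 8.93 in KL. Its difference was −0.88 (SE 0.13, adjusted p = 0.0116), and the adjusted p was 0.0533 without KL replicate 4. Dusp5, a nuclear phosphatase of ERK, was at −0.59 (SE 0.10, adjusted p = 0.0319) and lost its call without 6 of the 8 arrays in turn, all but KSL replicate 4 and KL replicate 1, with an adjusted p of up to 0.114. Ppp1r15a, which restores translation after stress by dephosphorylating eIF2α, was at −0.65 (SE 0.12, adjusted p = 0.0492), and lost its call without 6 of the 8, all but KSL replicate 2 and KL replicate 1, with an adjusted p of up to 0.121. Other regulators of signalling in the list did not pass the test, with Dusp1 at −0.76 (adjusted p = 0.129), Dusp6 at −0.43 (adjusted p = 0.203), Tnfaip3 at −0.48 (adjusted p = 0.181), Nfkbia at −0.21 (adjusted p = 0.636) and Socs3 at 0.01 (adjusted p = 0.991).

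The remaining called members of the list were Ptgs2, Cd69 and Gem. Ptgs2, the inducible cyclooxygenase of prostaglandin synthesis, read 4.95, 5.13, 5.22 and 5.0 in KSL and 6.04, 6.49, 6.20 and 6.04 in KL, a difference of −1.12 (SE 0.11, adjusted p = 2.24e-04). The KSL readings of Ptgs2 lay near the array medians of 5.01 to 5.12. Cd69, an early activation antigen that holds lymphocytes in tissue, read 7.87, 8.05, 8.34 and 8.43 in KSL and 8.87, 8.95, 9.25 and 9.60 in KL, a difference of −0.99 (SE 0.15, adjusted p = 0.0127). Both kept their call in each fit that left out an array, but Cd69 had an adjusted p of 0.235 with the 8 WT-labelled arrays alone. Gem, a small GTPase induced by mitogens, read 6.70, 6.58, 6.93 and 6.91 in KSL and 7.18, 7.51, 8.0 and 7.53 in KL. Its difference of −0.78 (SE 0.13, adjusted p = 0.0312) was lost without KSL replicate 1, 2 or 3 or KL replicate 2 or 4, with an adjusted p of up to 0.0802.

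Genes called lower outside the immediate-early list numbered 8, with Gm26802 among them. Plk2, a polo-like kinase first found as a serum-induced gene, read 4.92, 4.96, 4.78 and 5.24 in KSL and 5.63, 5.59, 6.35 and 5.98 in KL, a difference of −0.91 (SE 0.14, adjusted p = 0.0127). The KSL readings of Plk2 lay near the array medians of 5.01 to 5.12. Sik1, a salt-inducible kinase, read 7.57, 7.68, 7.66 and 7.65 in KSL and 8.06, 8.31, 8.91 and 8.73 in KL, a difference of −0.86 (SE 0.13, adjusted p = 0.0151). Both were not called without KSL replicate 3 or without KL replicate 4, with adjusted p of up to 0.0712 for Plk2 and 0.0783 for Sik1. Nfkbiz and Nfkbid, nuclear IκB proteins that modulate NF-κB target genes, were at −0.60 (SE 0.098, adjusted p = 0.0248) and −0.59 (SE 0.086, adjusted p = 0.0118), both named after their values were seen. Nfkbiz lost its call without KSL replicate 1 or 3 or KL replicate 2, 3 or 4, with an adjusted p of up to 0.0783, and Nfkbid fell under the fold minimum without KSL replicate 1 or KL replicate 2 or 3, at −0.52 in the smallest. Myct1, a target of Myc that is listed among the stem cell genes, read 9.85, 9.78, 9.90 and 10.20 in KSL and 10.39, 10.64, 10.70 and 10.67 in KL. Its difference was −0.67 (SE 0.12, adjusted p = 0.0492), and it lost its call without any one of 6 arrays, all but KSL replicate 4 and KL replicate 1, with an adjusted p of up to 0.138. The others called lower were a pair of small RNA genes, Gm24119 (a small nucleolar RNA in the gene table) at −0.93 and Gm26244 (a small nuclear RNA) at −0.67, each of which lost its call without 6 of the 8 arrays, all but KSL replicate 2 and KL replicate 1. Their adjusted p then reached 0.114 for Gm24119 and 0.125 for Gm26244.

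**Figure D3:**
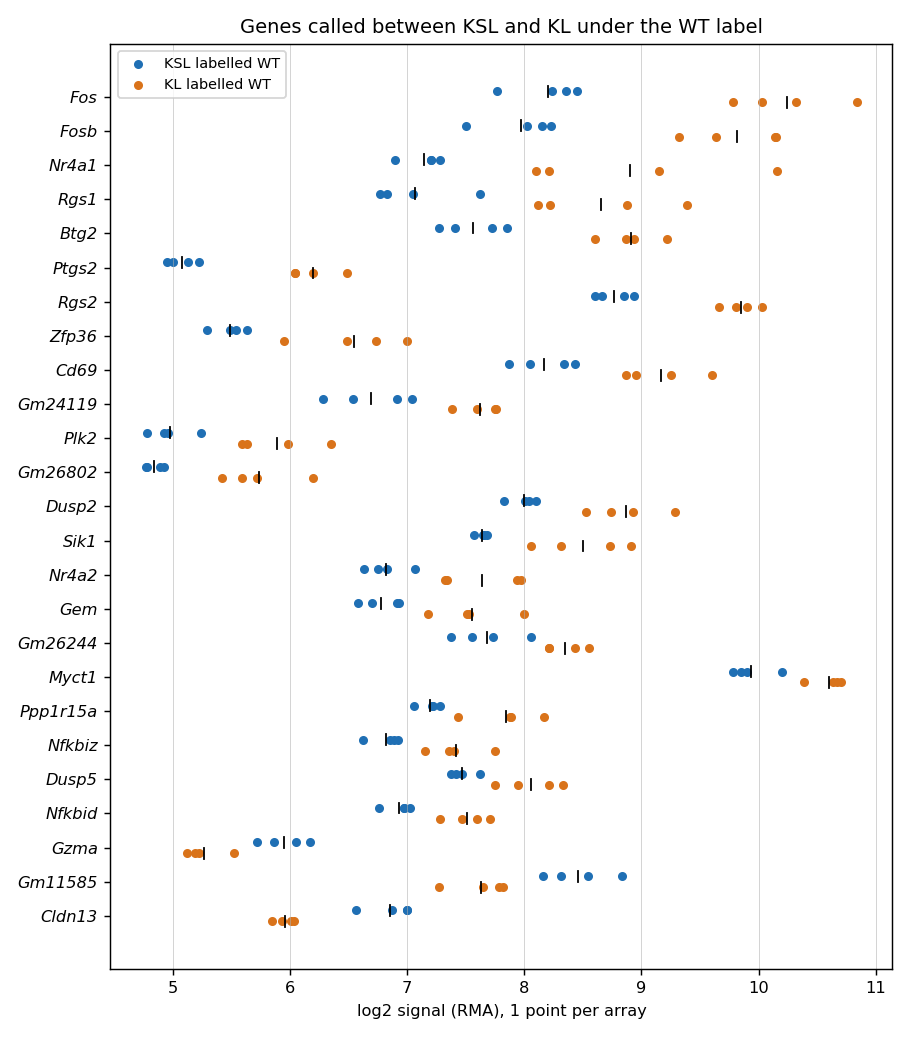
Log2 RMA signal of the 25 called genes, 1 point per array (blue, the 4 KSL arrays labelled WT; orange, the 4 KL arrays labelled WT), with a black tick at each mean. No gene has overlapping groups, which the choice of the genes on these same arrays makes likely. The KL arrays of Nr4a1 spread from 8.10 to 10.16 while its KSL arrays lie between 6.90 and 7.28.

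Upstream sequences of 5 of the called genes are shown because the cyclic AMP response element (CRE) and the CArG box, bound by CREB factors and by serum response factor, are textbook elements of immediate-early promoters. Each is 120 bases taken from before the RefSeq start site in the mouse build GRCm38.p6, read 5′ to 3′ on the gene's strand, with the motif in capitals. For Fos and Fosb the capitals mark the CRE core TGACG, for Btg2 and Plk2 the full CRE TGACGTCA, and for Dusp5 a run of 2 CArG boxes.
Fos, chr12:85473764-85473883, plus strand: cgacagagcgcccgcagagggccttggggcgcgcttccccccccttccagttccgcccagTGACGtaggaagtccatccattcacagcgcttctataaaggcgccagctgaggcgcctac
Fosb, chr7:19310046-19310165, minus strand: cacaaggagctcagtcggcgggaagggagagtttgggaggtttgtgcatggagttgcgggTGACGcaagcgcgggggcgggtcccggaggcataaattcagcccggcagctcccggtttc
Btg2, chr1:134079262-134079381, minus strand: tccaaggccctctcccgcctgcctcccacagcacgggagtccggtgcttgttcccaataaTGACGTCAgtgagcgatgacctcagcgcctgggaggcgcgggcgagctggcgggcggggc
Plk2, chr13:110394922-110395041, plus strand: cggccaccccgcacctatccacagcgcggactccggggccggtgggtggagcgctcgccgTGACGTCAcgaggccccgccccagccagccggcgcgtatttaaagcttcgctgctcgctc
Dusp5, chr19:53529013-53529132, plus strand: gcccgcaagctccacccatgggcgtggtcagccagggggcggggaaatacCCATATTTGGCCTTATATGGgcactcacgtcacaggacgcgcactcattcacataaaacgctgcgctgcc

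The 250 bases before the first listed start were searched on both strands for 15 of the 22 genes called lower, those with a promoter sequence to search. The full CRE was found in 3 of 15 (Btg2, Plk2 and Ppp1r15a), beside 1.95% of the 17972 promoters of tested genes. The core TGACG, which every full CRE also holds, was found in 11 of 15, beside 20.2%. The CArG box was found in 2 of 15 (Dusp5 and Zfp36), beside 1.33%, and the AP-1 site TGANTCA in 0 of 15, beside 6.57%. These are counts of matching letters, with no test, and a match is not evidence that a factor was bound.

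The immediate-early list showed the same direction in most of its members. It held 44 measured genes, of which 14 were called lower and none was called higher. For all genes the share called lower was 0.0729%. The median difference was −0.42, against 0.001 over all genes, and 36 of the 44 members had a lower mean in KSL. Every KSL array was below every KL array in 25 of the 44, beside 1.89% of all genes. The list was chosen with earlier results of these data known. Its counts beside the shares of all genes are therefore a description and not independent support. The means of the list on each array lay between 7.53 and 7.74 in KSL and between 7.99 and 8.41 in KL, without overlap. The number of members called lower was 9 without KSL replicate 1, 8 without KSL replicate 3, 6 without KL replicate 4 and 5 with the 8 WT-labelled arrays alone.

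None of the heat shock genes of the list was called. Hspa1a, an inducible chaperone, read 5.87, 6.13, 6.26 and 6.18 in KSL and 5.80, 6.34, 5.90 and 6.0 in KL, with a difference of 0.10 (SE 0.11, adjusted p = 0.941). Dnajb1 was at −0.15, Hspa8 at −0.05, Hsp90aa1 at 0.02, Bag3 at 0.03, Hspd1 at 0.06, Hspe1 at 0.14 and Hsph1 at 0.34, each with overlapping groups and none called. Differences as small were also found among transcription factors and regulators of the list. Myc, a growth factor-induced transcription factor, was at 0.11 (SE 0.10, adjusted p = 0.909), Atf3, a stress-induced one, at −0.14 and Gadd45a, a growth arrest gene, at −0.11, and none was called. Ier2 (−0.83, adjusted p = 0.0985), Klf6 (−0.72, adjusted p = 0.125) and Egr1 (−0.57, adjusted p = 0.0643) had groups that did not overlap but were not called.

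The genes called higher in KSL numbered 3. Cldn13, a claudin that the erythroid list holds, read 7.0, 7.0, 6.87 and 6.56 in KSL and 5.85, 6.01, 6.03 and 5.93 in KL, a difference of 0.91 (SE 0.15, adjusted p = 0.0291). Its levels on the null-labelled arrays were far above both groups, from 9.07 to 10.54. Its call was lost without any one of 6 arrays, all but KSL replicates 2 and 4, with an adjusted p of up to 0.0884. Gzma, granzyme A of cytotoxic lymphocytes, read 5.72, 6.05, 6.17 and 5.86 in KSL and 5.12, 5.22, 5.19 and 5.52 in KL, a difference of 0.69 (SE 0.094, adjusted p = 0.00752). It was called whichever array was left out, but not with the 8 WT-labelled arrays alone, where its adjusted p was 0.197. Gm11585, a pseudogene named after its values were seen, was at 0.83 (SE 0.15, adjusted p = 0.0447) and lost its call without 6 of the 8 arrays, all but KSL replicate 2 and KL replicate 1, with an adjusted p of up to 0.127.

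Klrb1b and Incenp passed the adjusted p but not the fold minimum. Klrb1b, a receptor of natural killer cells, read 4.84, 4.57, 4.88 and 4.67 in KSL and 4.30, 4.22, 4.28 and 4.21 in KL, a difference of 0.49 (SE 0.063, adjusted p = 0.00446). Each of its readings lay below the array medians of 5.01 to 5.12, so its signal was low in both groups. Incenp, a subunit of the chromosomal passenger complex of mitosis, read 8.47, 8.47, 8.45 and 8.47 in KSL and 8.16, 8.17, 8.27 and 8.22 in KL, a difference of 0.26 (SE 0.043, adjusted p = 0.0255). Of 25 measured T and NK cell genes, Gzma was the only one called, beside 0.00994% of all genes called higher. The median difference was 0.05, and the mean level of the list ranged from 6.01 to 6.22 in KSL and from 5.93 to 6.07 in KL. Cd3d, a chain of the T cell receptor complex, was at 0.36 (SE 0.12, adjusted p = 0.396). Whether lymphocytes among the sorted cells took part in the signals of Gzma and Klrb1b was not tested. In bulk samples a change in the number of cells of a type and a change in RNA per cell cannot be told apart.

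Among genes of the erythroid and myeloid lineages Cldn13 was the one called, and several others had a higher mean in KSL without passing the test. Ms4a3, a membrane protein of granulocyte-macrophage progenitors, read 10.53, 10.35, 10.71 and 10.27 in KSL and 9.09, 10.04, 9.59 and 9.51 in KL, a difference of 0.91 (SE 0.17, adjusted p = 0.0519). Rhag read 6.82, 7.83, 7.26 and 6.56 in KSL and 5.86, 5.98, 6.38 and 6.21 in KL, a difference of 1.01 (SE 0.21, adjusted p = 0.0918). Ly6c2, a surface antigen of monocytes and myeloid progenitors, read 10.32, 9.85, 10.57 and 10.19 in KSL and 8.65, 9.60, 9.54 and 8.77 in KL, a difference of 1.09 (SE 0.23, adjusted p = 0.0985). Every KSL array was above every KL array in these 3 genes, yet none was called. Elane, neutrophil elastase, was at 0.72 (SE 0.19, adjusted p = 0.201), and Car1, an early erythroid carbonic anhydrase, at 0.70 (SE 0.23, adjusted p = 0.352).

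As lists, these lineages had small median differences. Of 36 erythroid genes 26 had a higher mean in KSL, with a median of 0.10. At an unadjusted p under 0.05 in limma 8 were higher and 2 lower, beside 3.61% and 4.38% of all genes. Every KSL array was above every KL array in 9 and below in 2, beside 1.44% and 1.89% of all genes. Cldn13 was the one called, beside 0.00994% of all genes called higher. Of 35 granulocyte-macrophage progenitor genes 23 had a higher mean, with a median of 0.06 and none called. Among them 7 were higher and 3 lower at that p, and the groups did not overlap in 5 higher and 2 lower genes. Of 21 mast cell, basophil and eosinophil genes 18 had a higher mean, with a median of 0.13 and none called, and 4 were higher and 0 lower at that p. Prss34, a basophil protease, read 10.53, 10.72, 11.08 and 10.65 in KSL and 8.82, 9.69, 9.16 and 10.49 in KL, a difference of 1.21 (SE 0.43, adjusted p = 0.417) with wide spread in KL. The megakaryocyte and platelet list had a lower mean in 15 of 23 genes, with a median of −0.05 and none called. It held 2 genes lower and 0 higher at an unadjusted p under 0.05. Of 39 stem cell genes 31 had a lower mean in KSL, with a median of −0.09. Of these 39, 13 were lower and 0 higher at an unadjusted p under 0.05, and 4 had every KSL array below every KL array. Myct1 was the one called, beside 0.0729% of all genes called lower. The mean level of the stem cell list lay between 7.17 and 7.29 in KSL and between 7.31 and 7.36 in KL.

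Cell cycle genes had a higher mean in KSL in most members, and none passed the test. Of 64 measured members 54 had a higher mean, 26 were higher at an unadjusted p under 0.05, beside 3.61% of all genes, and 10 had every KSL array above every KL array, beside 1.44% of all genes. The median of the list was 0.13. Mki67, a nuclear antigen of cycling cells, read 9.22, 9.22, 9.12 and 9.38 in KSL and 8.68, 8.38, 8.84 and 9.12 in KL, a difference of 0.48 (SE 0.12, adjusted p = 0.166). Kif11, a mitotic kinesin, was at 0.47 (SE 0.13, adjusted p = 0.278) and Top2a, a topoisomerase of dividing cells, at 0.41 (SE 0.11, adjusted p = 0.23). Ccne2, a cyclin of the G1 to S transition, was at 0.33 (SE 0.070, adjusted p = 0.0975), with groups that did not overlap. Of 62 subunits of the respiratory chain 51 had a higher mean, with a median of 0.07 and none called. Of 47 quiescence regulators 32 had a lower mean, with a median of −0.07. Of the 47, 4 were called, all lower, beside 0.0729% of all genes called lower. These 4, Nr4a1, Btg2, Zfp36 and Nr4a2, are also members of the immediate-early list, so the 2 lists do not count separate genes.

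Lists of other cells and pathways had no called member. For other cells the median differences were 0.02 over 30 genes of mature neutrophils and monocytes, 0.02 over 21 of B and plasma cells, 0.08 over 13 of plasmacytoid dendritic cells and −0.03 over 23 of stromal and endothelial cells. S100a8, a calcium-binding protein of neutrophils, was at 0.89 (SE 0.51, adjusted p = 0.745), with 4.68 ± 0.47 in KL and 5.56 ± 0.82 in KSL. Of 31 genes of the CaMKK2 pathway the median was −0.01, and Prkag1, a regulatory subunit of AMP-activated protein kinase, had the largest difference at −0.30 (SE 0.081, adjusted p = 0.218). The 41 interferon-induced genes had a median of 0.05, led by Oas2, a sensor of double-stranded RNA, at 0.43 (SE 0.097, adjusted p = 0.137). The 19 genes of MHC class I and II had a median of −0.04 and the 24 Hox genes one of 0.03.

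**Figure D4:**
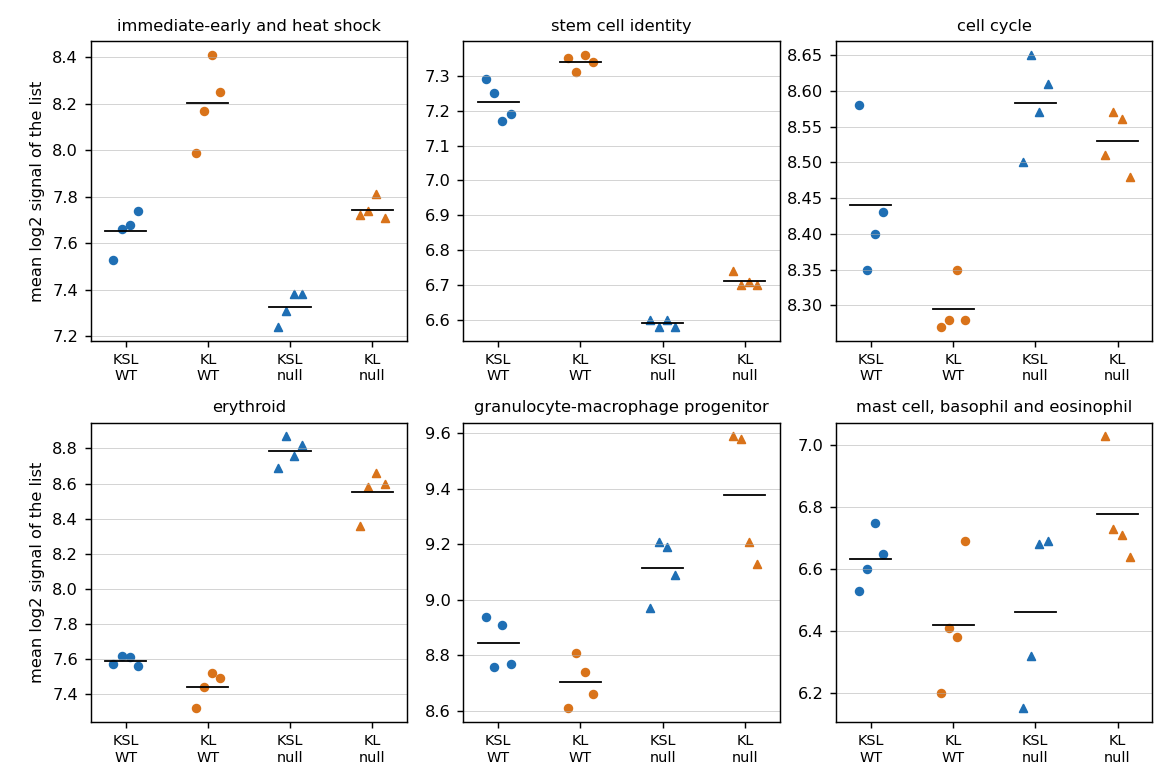
Mean log2 signal of 6 gene lists, 1 point per array, with a black line at the mean of each group of 4 arrays; the vertical axis of each panel has its own range, which does not start at 0. Under the WT label the immediate-early list lies between 7.53 and 7.74 in KSL and between 7.99 and 8.41 in KL, and the stem cell and erythroid lists differ far more between the genotype labels than between KSL and KL.

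The same contrast was made under the null label, which shares no array with the WT label. Both contrasts came from the same fit, and each gene had a single estimate of spread for both. Calls under the 2 labels are therefore not independent. Under the null label 80 genes were called (0.265% of 30176), 69 of them lower in KSL (0.229%), and 324 genes had an adjusted p under 0.05. All 25 genes called under the WT label had the same sign under the null label, and 8 were called under both, Btg2, Cd69, Cldn13, Fos, Fosb, Myct1, Rgs1 and Rgs2. The share of all genes with matching signs was not counted. For Gem, Gm11585, Gm24119, Gzma, Nr4a1 and Plk2 the 95% interval under the null label included 0. Over the 22 genes lower under the WT label the median difference was −0.90 under WT and −0.42 under null, and 20 of the 22 were smaller in size under the null label. The genes were chosen by their size under the WT label, so a smaller size elsewhere carries no weight as a result. Fos was at −1.70 (SE 0.18, adjusted p = 3.69e-04) under the null label, Btg2 at −0.64 (SE 0.13, adjusted p = 0.0205) and Nr4a1 at −0.42 (SE 0.31, adjusted p = 0.628). Jun (−1.36, adjusted p = 0.00765), Ier2 (−0.97, adjusted p = 0.0126), Klf6 (−0.98, adjusted p = 0.00676) and Dusp1 (−1.39, adjusted p = 0.00122), not called under the WT label, were called there. So were Nfkbia (−1.07, adjusted p = 1.72e-04), Tnfaip3 (−0.77, adjusted p = 0.00553) and Dusp6 (−0.70, adjusted p = 0.00568), which had not passed under the WT label either.

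The immediate-early list was also lower in KSL under the null label. Of its 44 measured genes 13 were called lower there and 0 higher, beside 0.229% of all genes called lower. Its mean level was 7.24 to 7.38 in KSL and 7.71 to 7.81 in KL there. Fos read 7.22, 7.24, 7.37 and 7.44 in KSL and 8.96, 8.88, 9.15 and 9.09 in KL under that label, each KSL array below every KL array.

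No gene passed the test of whether the KSL against KL difference itself differed between the labels. This interaction, tested for all 30176 genes in limma, gave 0 genes with an adjusted p under 0.05 and 1867 (6.19%) at an unadjusted p under 0.05, with 0.122 as its smallest adjusted p. Of the 25 called genes 14 had an unadjusted p of the interaction under 0.05. They were chosen for a large difference under the WT label, which enters the interaction, so nothing is read from this count. Ptgs2 was at −1.12 with the WT label and −0.36 with the null label, a difference of differences of −0.76 (95% interval −1.09 to −0.43, adjusted p = 0.181). For Fos it was −0.33 (95% interval −0.87 to 0.20, adjusted p = 0.854), an interval that allows both no difference and one of 0.87. An adjusted p that misses the threshold does not show that the labels act alike.

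**Figure D5:**
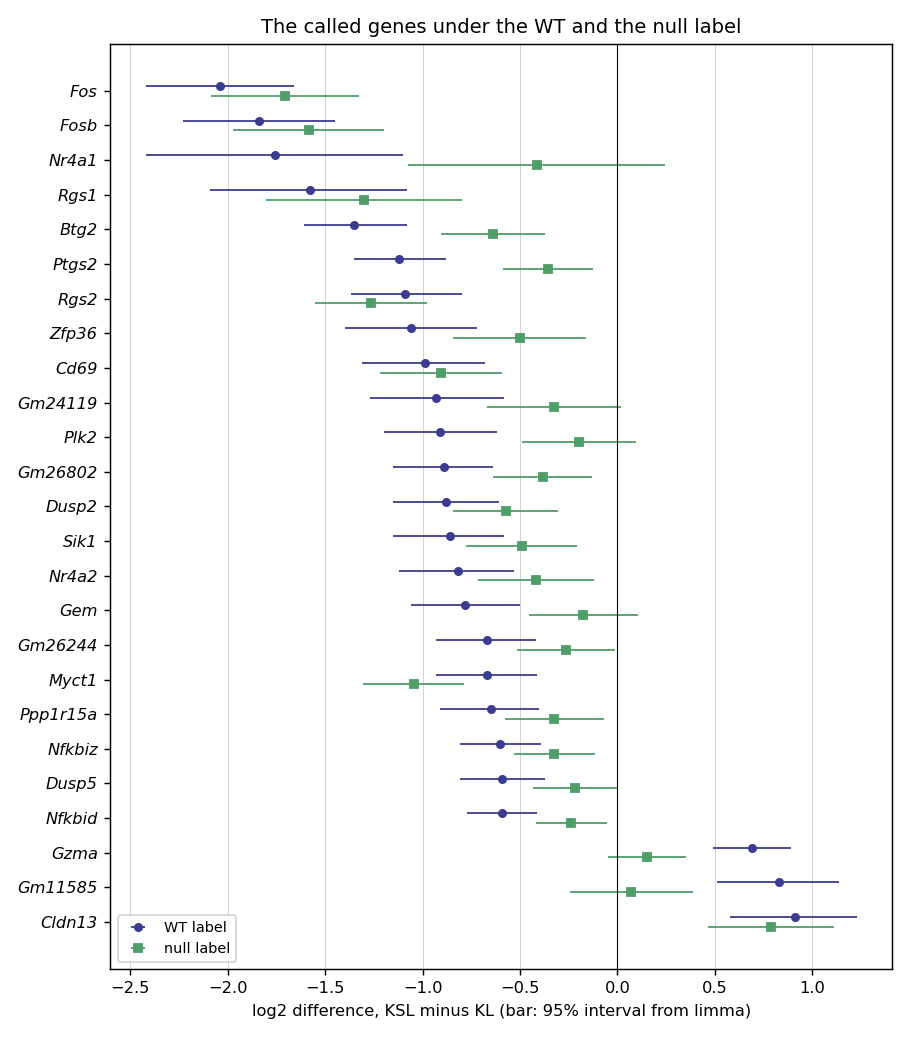
Log2 difference of KSL minus KL for the 25 called genes under the WT label (circles) and under the null label (squares), with 95% intervals from limma as bars. All 25 points under the null label have the sign of the WT label, some with bars that cross 0. Many lie nearer to 0, as for Nr4a1 at −1.76 and −0.42.

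MicroRNA genes were also measured, and none of 586 was called. The genes of one cluster on chromosome 8, chosen after their values were seen, were nevertheless among the larger differences. Mir23a read 6.14, 6.13, 6.98 and 6.71 in KSL and 7.27, 7.96, 8.29 and 8.69 in KL, a difference of −1.56 (SE 0.31, adjusted p = 0.0804). Mir27a read 6.14, 6.14, 7.38 and 7.57 in KSL and 7.60, 8.29, 8.55 and 8.82 in KL, a difference of −1.51 (SE 0.37, adjusted p = 0.166). Mir24-2 was at −0.80 (SE 0.19, adjusted p = 0.158), with overlapping groups. The probe sets are listed to the genes and do not tell a precursor from a mature microRNA. The mature sequences from RefSeq, which show that the 3 members have different seeds (bases 2 to 8, in capitals), are as follows.
mmu-miR-23a-3p: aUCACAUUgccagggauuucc
mmu-miR-27a-3p: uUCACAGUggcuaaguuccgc
mmu-miR-24-3p: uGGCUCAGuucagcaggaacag

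The called genes were spread over the chromosomes. One of the 25, Cldn13, lies on chromosome 5 with Camkk2, 129 genes away in order, and 5.44% of all placed genes lie on that chromosome. Of the 200 genes within 100 of Camkk2 in order, 0 were called, and the largest difference was 0.43 in size. Among these 200, 18 had an unadjusted p under 0.05 in limma, in either direction. Of all genes, 3.61% were higher and 4.38% lower in KSL at that p.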

How the data were processed

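RNA of sorted bone marrow KSL and KL cells was hybridised to one-colour whole-transcript mouse arrays, 4 for each cell type and genotype label. The authors deposited log2 signals, normalised by RMA in Partek 6.6 according to the submitters' processing notes; the annotation build is not given in the sources used here. Of 72688 features, 30638 were listed to 1 gene symbol, 2176 to several, and the brightest probe set on average was kept for each of 30176 genes. Differences were fitted with limma 3.58.1 (R 4.3.3) with a mean for each of the 4 groups over all 16 arrays, without covariates; a gene was called at an adjusted p under 0.05 (Benjamini-Hochberg) and a fold of at least 1.5. The series calls the 4 replicates biological, but nothing in the sources says which mice lie behind a replicate. The p-values therefore measure only the spread between arrays within the 4 groups, pooled over all 16. How much of that spread is technical is not known. The scripts were tested on simulated data.

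Named genes were Camkk2, up to 15 called genes in each direction by size (predicted genes, small RNAs and receptor segments passed over), then those of smallest p, the cell type markers and up to 4 members of each list; Fosl2, Jund, Jun, Ier2, Klf6, Egr1, Dusp1, Dusp6, Tnfaip3, Nfkbia, Socs3, Atf3, Gadd45a, Nr4a3, the heat shock genes, Myc and the microRNA genes were named after their values were seen. Members and gene lists were chosen with earlier results of these data known. Lists were described by counts and medians, without tests. Alternatives were 8-array, blocked, renormalised, filtered, weighted and leave-one-out fits, other fold minimums and the Student's test named in the methods. Gene names and positions came from the RefSeq table of GRCm38.p6, to which 30306 probe sets matched, and gene order was counted among tested genes.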

Additional observations from a re-analysis of the deposited data

Results flagged for a closer look

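Each named gene and each list mean was screened, in the KSL and in the KL group of the WT label, for 1 array that stands apart from the other 3, by Dixon's ratio of its gap to the range of the group at the 95% critical value for 4 samples. Chance flags about 1 in 20 such groups, and 18 of 310 were flagged here. None of the 25 called genes was among them.

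In KSL replicate 1, Meis1 read 9.31 against 8.94 to 8.98 on the other arrays, Mecom read 5.62 against 5.41 to 5.45, Rps10 read 10.05 against 10.25 to 10.28, and Tcf3 read 7.78 against 8.12 to 8.17. The mean of the quiescence list on that array was 7.42 against 7.38 to 7.39. In KSL replicate 2, Cd48 read 11.04 against 11.33 to 11.38, Cpa3 read 8.96 against 9.26 to 9.30, and Usp18 read 7.83 against 8.15 to 8.21.

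In KL replicate 1, H2ac15 read 11.23 against 11.89 to 11.94, Lsp1 read 8.84 against 9.0 to 9.03, and the mean of the T and NK cell list was 5.93 against 6.05 to 6.07. In KL replicate 2, Angpt1 read 8.97 against 9.47 to 9.57 and Tsix read 6.11 against 5.98 to 5.99. In KL replicate 3, Atp5e read 10.15, where the lowest of the others was 9.97, Atp5k read 9.14 against 8.86 to 8.90, and the mean of the cell cycle list was 8.35 against 8.27 to 8.28. In KL replicate 4, Ccne2 read 7.71 against 7.90 to 7.93 and Hoxc8 read 5.24 against 5.44 to 5.46.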

How the results depend on the processing

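The count of 25 called genes fell to 7 with the 8 WT-labelled arrays alone, to 8 at a fold of at least 2 and to 0 by the methods' Student's test after Benjamini-Hochberg (94 at its unadjusted threshold with the fold minimum), and it lay between 9 and 62 when 1 array was left out. The 14 immediate-early genes called lower became 5, 8 and 0 under the first 3 of these settings, and 6 to 17 when 1 array was left out. The interaction count of 0 became 2 after repeating the quantile normalisation (Nfkbia at 0.82 and Btnl10 at −0.73, each with an adjusted p of 0.0188, against 0.124 and 0.122 before). The cause of these changes was not tested, beyond the fewer arrays and the stricter threshold that some settings apply by construction. No setting reversed the sign of a called gene, and Fos, Fosb, Btg2, Ptgs2 and Rgs2 stayed called in each renormalised, weighted, filtered, blocked, 8-array and leave-one-out fit in which they were tested. Of 408 list medians under the alternatives, 6 moved by more than the spread between arrays, all of them to values of at most 0.2 in size.

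Same-numbered KSL and KL arrays deviated together with correlations of 0.17, 0.03, 0.03 and 0.22, so the numbers were not taken to pair the samples. KSL replicates 2 and 3 correlated best with another number. Against KL replicates 1 to 4 in order, KSL replicate 1 gave 0.17, 0.04, −0.10 and −0.12, and KSL replicate 2 gave 0.25, 0.03, −0.12 and −0.18. KSL replicate 4 gave −0.20, −0.21, 0.21 and 0.22, and KSL replicate 3 was mixed at −0.26, 0.13, 0.03 and 0.11. Whether replicates 1 and 2 were handled apart from replicates 3 and 4 was not tested. With a replicate block, 36 genes were called over all 16 arrays, 43 with the block within genotype and 13 over the 8 WT-labelled arrays, where 7 immediate-early genes were called lower.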
